A study of Rattus norvegicus with 6 samples.

Results

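Mitotic spindle, kinetochore and chromosome genes were compared between unstimulated and fibrinogen-treated progenitors of oligodendrocytes (OPCs) from rat, the glia that divide and then form the myelin-making cells of the brain. Members were chosen by gene symbol from a fixed naming pattern (centromere proteins, mitotic kinesins, A- and B-type cyclins, Cdk1 and Cdc25, checkpoint genes, Aurora, Polo-like and NIMA-related kinases, condensin and cohesin genes, and the anaphase-promoting complex), which itself uses no measured values but was set with earlier results of these data known. The pattern found 77 of the 13355 genes measured, each represented by 1 probe set. Of 105 protein-coding rat genes in RefSeq whose symbols match, 28 had no valued probe set of their own and were not analysed here, among them Mki67, Birc5, Cenpe, Cenpf, Spc24 and Kif14. Aurkaip1, Ccnb1ip1 and Mad2l1bp matched only because their names begin with a member's name, and none of these 3 passed the test.

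RNA came from primary OPCs of rat pups of postnatal day 1 to 2 that had recovered for 2 days in a proliferation medium with N2, B27, NT3 and PDGF. The 3 control arrays are labelled as unstimulated cells at 48 h, and the 3 fibrinogen arrays as cells that received fibrinogen, the plasma protein of blood clots, for 48 h in differentiation medium. The medium of the controls is not given in the sources used here, and nothing states that the arrays of a group came from separate cultures, so p-values measure only the spread between these samples, which may be technical. By its title, the series is about BMP signalling in OPCs under fibrinogen and about repair of myelin. The genes described here, most with roles in cell division, were read as RNA in the same cultures, and division itself was not measured by the arrays.

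Cells that divide make the mitotic machinery anew in each cycle. The genes of the G2 and M phases are held back in resting cells by the DREAM complex, which sits on a promoter element called CHR, and are switched on by B-Myb, FoxM1 and the CCAAT-binding factor NF-Y. OPCs divide under PDGF, and they leave the cell cycle when they differentiate into oligodendrocytes. Other members, such as the core subunits of the anaphase-promoting complex and the cohesins, are needed through the whole cycle or in resting cells too and are made more evenly.

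The promoters of 6 members past the threshold, 5 that rose and Nek7, which fell, are shown first because the letters known for mitotic regulation can be read in them directly. Each line gives the 150 bases before the RefSeq start of the gene (build GRCr8, 5′ to 3′ on the gene's strand), at chr8:79981659-79981808 for Ccnb2 (minus strand), chr2:33655226-33655375 for Ccnb1 (minus strand), chr20:19265143-19265292 for Cdk1 (plus strand), chr10:84473094-84473243 for Top2a (minus strand), chr3:42693844-42693993 for Nek6 (plus strand) and chr13:52700824-52700973 for Nek7 (minus strand). Capitals mark CHR letters (TTTGAA or TTCGAA, on either strand, so TTCAAA too) and CCAAT letters (or ATTGG, the same on the other strand).
Ccnb2: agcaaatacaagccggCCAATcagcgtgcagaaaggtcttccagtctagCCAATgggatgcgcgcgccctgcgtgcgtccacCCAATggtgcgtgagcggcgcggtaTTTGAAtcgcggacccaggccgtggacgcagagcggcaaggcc
Ccnb1: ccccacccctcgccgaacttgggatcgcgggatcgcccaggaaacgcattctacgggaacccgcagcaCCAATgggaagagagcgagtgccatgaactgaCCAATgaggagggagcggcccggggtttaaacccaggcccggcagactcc
Cdk1: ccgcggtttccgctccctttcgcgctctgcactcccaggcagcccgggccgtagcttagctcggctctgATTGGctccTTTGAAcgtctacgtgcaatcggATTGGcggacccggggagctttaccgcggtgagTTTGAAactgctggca
Top2a: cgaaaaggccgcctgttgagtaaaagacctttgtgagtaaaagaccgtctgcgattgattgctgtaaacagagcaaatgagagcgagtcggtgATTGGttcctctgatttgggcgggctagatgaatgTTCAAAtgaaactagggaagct
Nek6: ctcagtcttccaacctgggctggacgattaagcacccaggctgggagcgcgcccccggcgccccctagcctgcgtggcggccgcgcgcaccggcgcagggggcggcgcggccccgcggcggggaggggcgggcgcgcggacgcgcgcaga
Nek7: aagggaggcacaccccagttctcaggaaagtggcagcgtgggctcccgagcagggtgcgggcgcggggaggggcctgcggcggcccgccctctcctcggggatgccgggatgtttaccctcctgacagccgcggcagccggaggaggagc

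The promoter of Ccnb2 (cyclin B2) held 3 CCAAT motifs spaced 33 and 33 bases apart, followed by a CHR motif that begins 43 bases before the start. Ccnb1 (cyclin B1) held a pair of CCAAT motifs 32 bases apart and no CHR letters in its window. Cdk1 (the kinase both cyclins activate) had a pair on the other strand, also 32 bases apart, with CHR letters 72 and 16 bases before the start. In Top2a (topoisomerase II alpha, which untangles sister chromosomes) CHR letters lay 22 bases and a CCAAT motif 57 bases before the start. The printed stretches of Nek6 and Nek7 held neither motif. Outside them, Nek7 held CHR letters 175 bases before the start, and Nek6 a CCAAT motif 43 bases after it. Farther before the start, Ccnb2 held more CHR letters at 214 bases and Cdk1 a further CCAAT motif at 210 bases. Top2a held more CHR letters at 152 bases and CCAAT motifs at 161, 201 and 239 bases before its start. A match is a description of letters and not evidence of a bound site.

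Across the members, RefSeq promoter windows (250 bases before to 50 after the start) were found for 69 of 77 genes; Anapc16, Anapc4, Aurkaip1, Aurkb, Ccna2, Cenpt, Tpx2 and Ube2c had no entry. Of the 25 members with an entry that rose with fibrinogen, 17 (68.0%) held CHR letters, against 16 of 44 (36.4%) of the other members and 19.5% of all 27457 genes in the table. At least 2 CCAAT motifs occurred in 11 of the 25 (44.0%), in 7 of 44 (15.9%) and in 11.5% of all genes. CHR and CCAAT letters occurred together in 11 of the 25 (44.0%), in 8 of 44 (18.2%) and in 7.83% of all genes. E2F-like letters (the motif TTCCCGC, the motif TTGGCGC, the motif TTCGCGC or else TTGCCGC, each on either strand), known from DNA replication genes, did not separate the members in this way, with 6 of 25 (24.0%), 11 of 44 (25%) and 10% of all genes. Members share ancestry and function and are not independent draws from the table, so these shares carry no test.

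Mitotic genes were higher in the fibrinogen cultures. Of the 77 members, 27 (35.1%) rose, Nek7 alone fell, and 49 did not pass an adjusted p of 0.05 (limma, Benjamini-Hochberg over all 13355 genes). Among all genes tested, 4.16% rose and 3.00% fell. The median member changed by 0.33 on the log2 scale, a 1.26-fold difference, against 0.00 for all genes, and 71 of 77 changes were positive. With each gene's variance left unmoderated, 11 of the 27 rises passed. The rises were modest, from 1.28-fold (Spc25) to 1.77-fold (Nuf2), and 6 of the 27 reached 1.5-fold (Nuf2, Nek6, Kif18b, Kif23, Cenpw and Cenpu). The 3 fibrinogen arrays lay above all 3 controls for 49 members (63.6%), against 15.0% of all genes, and 22 of those 49 were not called, with adjusted p from 0.0544 (Kif20b) to 0.430 (Anapc5). The reverse order was seen for 2 members, Nek7 and Mad2l1bp, against 12% of all genes.

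The mean log2 expression of the 77 members was 7.36, 7.48 and 7.45 on control arrays 1, 2 and 3, and 7.71, 7.71 and 7.79 on fibrinogen arrays 1, 2 and 3. Control 1 was thus lowest and fibrinogen 3 highest, and single genes had the same order more often than genes at large: control 1 held the lowest control value for 45 of 77 members (58.4%), against 39.4% of all genes, and fibrinogen 3 the highest fibrinogen value for 45 (58.4%), against 33.3%. With control 1, 2 or 3 left out in turn, 17, 18 and 11 members rose, and with fibrinogen 1, 2 or 3 left out 9, 6 and 8 did (8 of the 9 among the 27), while 70 or 71 of the 77 changes stayed positive. The share of all genes that rose dropped in the same refits, to between 1.56% and 2.84%. Nek6, Kif18b, Nuf2 and Cenpt were the 4 rises called in each of those 6 refits.

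**Figure D1:**
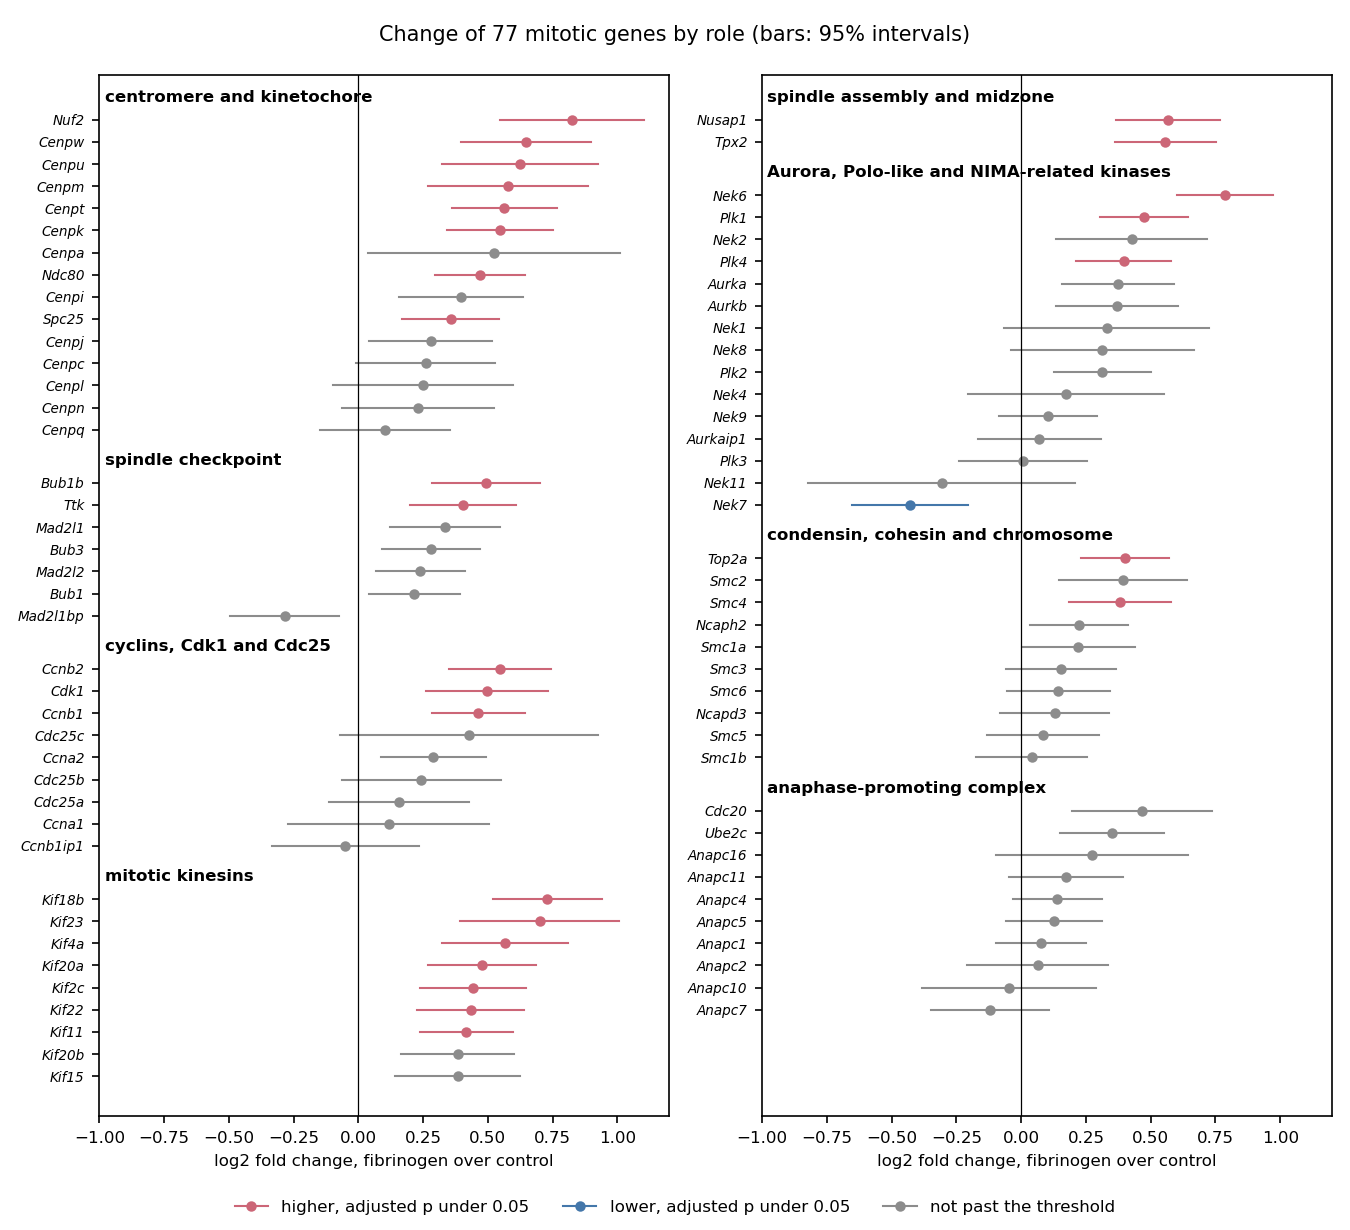
Log2 fold change (fibrinogen over control, horizontal axis) of all 77 members grouped by role, with 95% intervals as bars; red marks a rise and blue a fall past an adjusted p of 0.05, grey the rest. All 9 mitotic kinesins and all 15 centromere and kinetochore genes lie to the right of 0. The 8 Anapc subunits lie between -0.12 and 0.27 with intervals that include 0, and Nek7 is the one member in blue.

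Members on a list of G2 and M phase genes stood higher than the other members. The list, in wide use for staging single human cells, holds 21 of the 77 members. Of these 12 (57.1%) rose, none fell, and all 21 changes were positive (median 0.43, from 0.22 for Bub1 to 0.83 for Nuf2). At an unadjusted p of 0.05, 20 of the 21 were higher and 0 lower. Among all 13355 genes, 1566 were higher and 1249 lower at that cutoff, the background for each unadjusted count given here. The other 56 members had 15 rises (26.8%), 1 fall and a median of 0.25. They include Ccnb1, Plk1 and Bub1b, which rose, so the split is by list and not by the timing of each gene. The mean of the 21 was 7.61, 7.76 and 7.73 on the controls and 8.11, 8.13 and 8.26 on the fibrinogen arrays, and these groups did not overlap. Nor did those of the other 56 members, with means of 7.26, 7.38 and 7.34 on the controls and 7.57, 7.56 and 7.61 on the fibrinogen arrays. With control 1, 2 or 3 left out in turn, 7, 7 and 5 of the 21 rose, and with fibrinogen 1, 2 or 3 left out 4, 2 and 4.

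**Figure D2:**
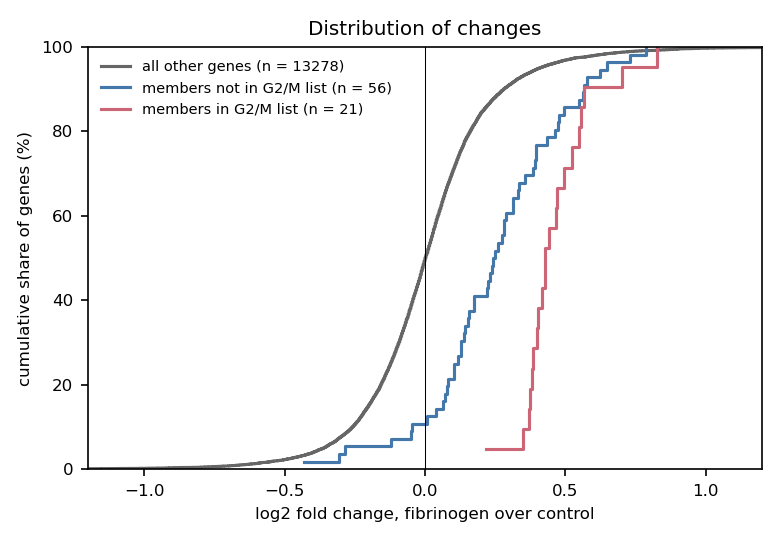
Cumulative share of genes (vertical axis, percent) against log2 fold change (horizontal axis, shown from -1.2 to 1.2) for 21 members in the G2/M list (red), 56 other members (blue) and 13278 other genes (grey). The red curve begins at 0.22 and has no gene below 0, and the blue curve lies between it and the grey curve over most of the range.

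Kinetochore genes were among the clearest rises: of 15 centromere and kinetochore members 8 rose and 7 missed the threshold, with every one of the 15 changes above 0 (median 0.47). The Ndc80 complex grips the ends of spindle microtubules, and its 3 measured subunits, Nuf2, Ndc80 and Spc25, rose. Nuf2 (probe set 10769657) read 6.76, 7.12 and 6.84 on the control arrays and 7.64, 7.88 and 7.68 on the fibrinogen arrays. Every fibrinogen array lay above every control, and the difference was 1.77-fold (0.83 ± 0.12 on the log2 scale, SE, adjusted p = 0.00925). Ndc80 (10930488) read 8.39, 8.43 and 8.49 in control and 8.90, 8.97 and 8.85 with fibrinogen, tight groups that differed 1.39-fold (adjusted p = 0.0128). Spc25 (10845969) rose 1.28-fold (adjusted p = 0.0426).

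Below the Ndc80 complex sits the inner kinetochore, which is built on centromeric chromatin. Cenpt and Cenpw, histone-fold partners that carry Ndc80 complexes, rose 1.48- and 1.57-fold. Cenpw (10702408) read 8.46, 8.68 and 8.84 in control and 9.32, 9.34 and 9.26 with fibrinogen, so that the fibrinogen arrays agreed more closely than the controls (adjusted p = 0.0153). Cenpt (10810703) read 7.55, 7.68 and 7.5 against 8.07, 8.11 and 8.24 (adjusted p = 0.0118). Cenpk and Cenpm, neighbours in the inner kinetochore, rose 1.46- and 1.49-fold (adjusted p = 0.0132 and 0.0453), and Cenpu, which docks Polo-like kinase 1, rose 1.54-fold (adjusted p = 0.0327). Their partner Cenpi changed by 0.40 on the log2 scale without passing (adjusted p = 0.0657).

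Cenpa, the histone H3 variant that marks the centromere, read 5.42, 6.17 and 5.96 in control and 6.11, 6.42 and 6.59 with fibrinogen. Its groups overlapped and its spread was wide (log2 fold change 0.52, 95% interval 0.04 to 1.01, adjusted p = 0.203). Cenpc, Cenpl and Cenpn, which bind the Cenpa nucleosome or its neighbourhood, were at 0.26, 0.25 and 0.23, and Cenpq at 0.10, all with intervals that included 0. Cenpj, a centriole protein despite its name, was at 0.28 (adjusted p = 0.165). Of the 8 calls, those of Cenpk and Cenpw were lost without any one fibrinogen array (highest adjusted p = 0.0599 and 0.0680) and that of Ndc80 without fibrinogen 1 or 2 (0.0606). Cenpu and Spc25 passed only with control 1 as the array left out (otherwise up to 0.115 and 0.143), and Cenpm only without control 1 or 2 (otherwise up to 0.142). With each array centred on its median, Spc25 and Cenpm lost their calls (adjusted p = 0.0696 and 0.0547), and Spc25 also with a second quantile normalization (0.0800).

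All 9 mitotic kinesins had fibrinogen arrays above every control array, against 15.0% of all genes. Of the 9, 7 rose (median 0.44), against 4.16% of all genes. These motors build the bipolar spindle, move chromosomes and organise the midzone where the cell divides. Kif18b (10747959), which shortens microtubule plus ends, read 7.81, 8.02 and 7.81 in control and 8.58, 8.56 and 8.69 with fibrinogen, which is 1.66-fold higher (0.73 ± 0.09 on the log2 scale, SE, adjusted p = 0.00521). Kif23 (10918031), the motor of the centralspindlin complex of cytokinesis, read 6.57, 6.99 and 6.90 against 7.54, 7.37 and 7.65, a 1.62-fold rise (adjusted p = 0.0241). Control 1 was the low array of Kif23, and the groups did not overlap.

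The chromosome-bound motors Kif4a and Kif22 rose 1.48- and 1.35-fold (adjusted p = 0.0228 and 0.0305). Kif20a, a midzone motor, rose 1.39-fold and Kif2c, which takes microtubules apart at the centromere, 1.36-fold. Kif11, the motor that pushes the spindle poles apart, read 7.88, 8.04 and 7.95 in control and 8.42, 8.35 and 8.35 with fibrinogen, a 1.33-fold rise (adjusted p = 0.0228). Kif15, which can stand in for Kif11, and Kif20b were both at 0.38 on the log2 scale and did not pass (adjusted p = 0.0738 and 0.0544). With control 1, 2 or 3 left out in turn, 2, 5 and 1 of the kinesins rose, and 1 with any fibrinogen array left out. Kif18b kept its call throughout, Kif2c and Kif22 lost theirs whichever array was left out (highest adjusted p = 0.102 and 0.10), and Kif4a, Kif11 and Kif20a lost theirs unless control 2 was the array left out (0.0902, 0.0908 and 0.0930). Kif23 passed without control 1 and without control 2 only (otherwise up to 0.0919).

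Both spindle assembly factors that the naming pattern covers rose. Nusap1, which bundles spindle microtubules near chromosomes, read 8.29, 8.29 and 8.33 on the control arrays and 8.74, 8.89 and 8.98 with fibrinogen (1.48-fold). Tpx2, which activates Aurora A on the spindle, read 9.0, 9.14 and 9.0 against 9.51, 9.62 and 9.68 (1.47-fold). Both had an adjusted p = 0.0108 and both lost the call without fibrinogen 2 (adjusted p = 0.0518 for each).

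**Figure D3:**
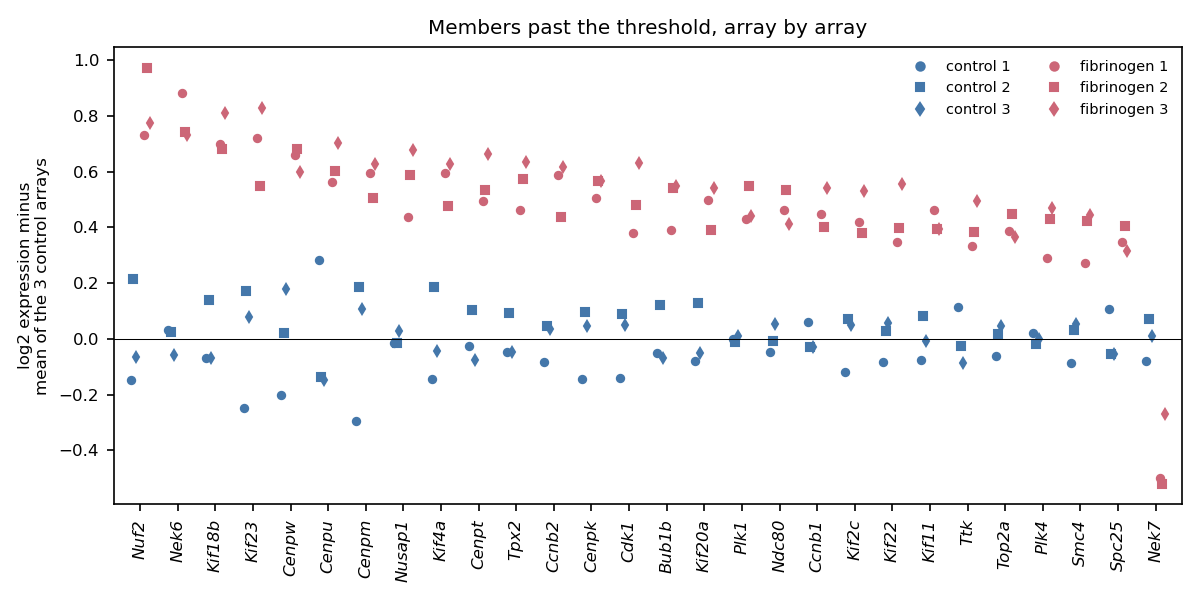
Log2 expression on each array minus the mean of the 3 control arrays (vertical axis) for the 28 members past the threshold, in order of their change; blue points are controls, red points fibrinogen arrays, and the shape gives the replicate number. No red point overlaps the blue points of its gene, and Nek7 is the one gene with its red points below.

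The switch that starts mitosis rose in part: Ccnb2, Cdk1 and Ccnb1 rose, and the other 6 of the 9 cyclin, Cdk1 and Cdc25 members did not pass. Ccnb2 (10717195) read 8.52, 8.65 and 8.64 in control and 9.19, 9.04 and 9.22 with fibrinogen (1.46-fold, log2 fold change 0.55, SE 0.08, adjusted p = 0.0119). A further probe set of Ccnb2 (10918509) gave a change of 0.54. Ccnb1 (10821016) read 8.62, 8.53 and 8.53 against 9.01, 8.96 and 9.10 (1.38-fold, adjusted p = 0.0151). Cdk1 (10829761) read 8.17, 8.40 and 8.36 against 8.69, 8.79 and 8.94 (1.41-fold, adjusted p = 0.0311).

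Ccna2, the cyclin of S phase and early mitosis, read 8.63, 8.47 and 8.45 in control and 8.90, 8.76 and 8.76 with fibrinogen, separate groups that did not pass (log2 fold change 0.29, SE 0.09, adjusted p = 0.101). The Cdc25 phosphatases, which remove the brake from Cdk1, were at 0.16 (Cdc25a), 0.24 (Cdc25b) and 0.43 (Cdc25c), and the arrays of the groups overlapped for all 3. None of these 3 reached an unadjusted p of 0.05 in limma. Ccna1, a cyclin of the germ line, was dim and at 0.12 (95% interval -0.27 to 0.50). The call of Cdk1 did not survive the loss of any single array (adjusted p up to 0.104), that of Ccnb1 was lost without control 3, fibrinogen 1 or fibrinogen 3 (0.0645), and that of Ccnb2 without fibrinogen 1 or 3 (0.0576).

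In the spindle checkpoint, which delays anaphase until every chromosome is attached, 2 of 7 members rose and 5 did not pass, though none of the 7 had overlapping groups. Among all genes, 4.16% rose, and 27.0% had groups that did not overlap, counting both directions. Bub1b (BubR1, part of the inhibitor of the anaphase-promoting complex) read 7.38, 7.55 and 7.36 in control and 7.82, 7.97 and 7.98 with fibrinogen, a 1.41-fold rise (adjusted p = 0.0214). Ttk (the kinase Mps1, which starts the checkpoint signal) read 7.39, 7.25 and 7.19 against 7.61, 7.66 and 7.77, a 1.32-fold rise (adjusted p = 0.0385). Mad2l1 (Mad2), Bub3 and Bub1 were at 0.33, 0.28 and 0.22 on the log2 scale (adjusted p = 0.0768, 0.0929 and 0.152). Mad2l2, a Mad2 relative that acts mainly in DNA repair, was at 0.24.

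Mad2l1bp (p31comet), which silences the checkpoint by removing Mad2, was the 1 checkpoint-related member with lower fibrinogen arrays: 7.76, 7.52 and 7.68 in control against 7.33, 7.45 and 7.33 (log2 fold change -0.28, 95% interval -0.49 to -0.07, adjusted p = 0.120). Bub1b passed without control 2 and without fibrinogen 1 only (otherwise up to 0.0868), and Ttk without control 1 only (otherwise up to 0.129). Ttk also lost it with each array centred on its median (0.0597) and with a second quantile normalization (0.0555).

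The kinases went in both directions: of 15 Aurora, Polo-like and NIMA-related members (Aurkaip1, no kinase, among them), 3 rose, 1 fell and 11 did not pass. Plk1, which drives entry into and exit from mitosis, read 8.87, 8.86 and 8.88 on the control arrays and 9.30, 9.42 and 9.31 with fibrinogen (1.39-fold, SE 0.07 on the log2 scale, adjusted p = 0.0117). Plk4, the kinase of centriole duplication, read 7.06, 7.02 and 7.04 against 7.33, 7.47 and 7.51 (1.32-fold, adjusted p = 0.0286). Plk2 and Plk3, relatives with roles in stress and synapses, were at 0.31 (adjusted p = 0.0624) and 0.01 (95% interval -0.24 to 0.25). Aurka, the kinase of the spindle poles, read 7.02, 7.02 and 7.05 against 7.29, 7.35 and 7.57, and Aurkb, of the chromosomal passenger complex, 7.93, 7.96 and 8.12 against 8.34, 8.25 and 8.53. Both had separate groups and fell short of the threshold (log2 fold change 0.37 for each, adjusted p = 0.0573 and 0.0776). Plk1 missed the threshold without fibrinogen 2 (adjusted p = 0.0541), and Plk4 with any single array removed (up to 0.105).

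The NIMA-related kinases held the strongest call of all 77 members and also the 1 fall. Nek6 and Nek7 are close relatives that Nek9 activates and that act in spindle formation; Nek7 is also a partner of the NLRP3 inflammasome. Nek6 (10835964) read 7.26, 7.25 and 7.17 in control and 8.11, 7.97 and 7.96 with fibrinogen, which is 1.73-fold higher (0.79 ± 0.08 on the log2 scale, SE, adjusted p = 0.00313). Nek7 (10768177) read 8.04, 8.19 and 8.13 in control and 7.62, 7.60 and 7.85 with fibrinogen, a 1.35-fold fall (log2 fold change -0.43, SE 0.09, adjusted p = 0.0411). The groups of neither gene overlapped, and fibrinogen 3 was the Nek7 array nearest to the controls.

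The changes of the pair differed by 1.22 on the log2 scale, taken as the difference of both genes within each array. This is a description with no test, since the pair was singled out for its opposite changes. Nek9 was at 0.10 (95% interval -0.09 to 0.29). Nek2, a kinase of centrosome separation, read 7.28, 7.12 and 7.16 against 7.36, 7.67 and 7.81 and did not pass (log2 fold change 0.43, adjusted p = 0.0962), and a further probe set of Nek2 held the same values. Nek1, Nek4 and Nek8, linked to cilia, were at 0.33, 0.17 and 0.31 and Nek11 at -0.31, with overlapping arrays for Nek1, Nek4, Nek8 and Nek11. Nek6 kept its call without any one array (highest adjusted p = 0.0190). Nek7 kept its call without fibrinogen 3 and lost it without any other array (highest adjusted p = 0.141).

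**Figure D4:**
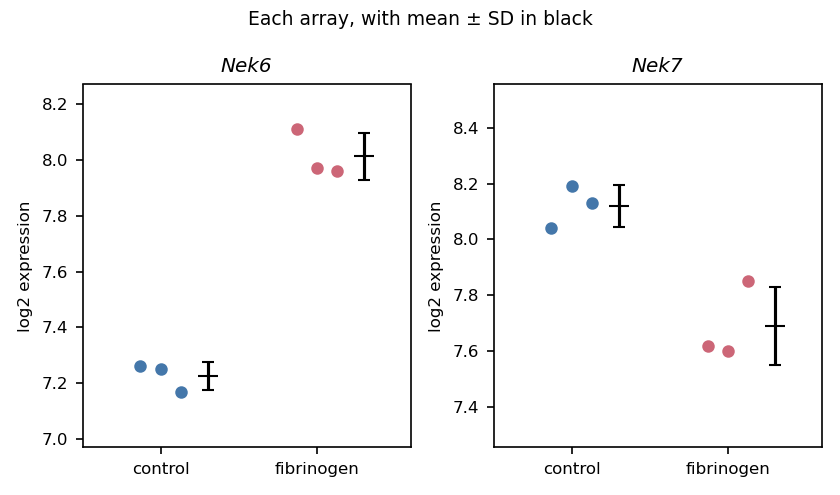
Log2 expression of Nek6 (left) and Nek7 (right) on the 3 control arrays (blue) and 3 fibrinogen arrays (red), with mean ± SD in black; both vertical axes span 1.3 log2 units, and levels of the 2 probe sets are not comparable. Nek6 lies between 7.17 and 7.26 in control and between 7.96 and 8.11 with fibrinogen, and Nek7 between 8.04 and 8.19 and between 7.60 and 7.85.

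Chromosome structure genes changed by small amounts, with a median of 0.19 and each of the 10 changes above 0. Of the 10, 2 rose, against 4.16% of all genes, and 8 were short of the threshold. Every fibrinogen array lay above every control for 7 of the 10, against 15.0% of all genes. Top2a read 9.72, 9.80 and 9.83 in control and 10.17, 10.23 and 10.15 with fibrinogen, a 1.32-fold rise (SE 0.07 on the log2 scale, adjusted p = 0.0222). Smc4, a condensin subunit, read 8.29, 8.41 and 8.43 against 8.65, 8.80 and 8.82, a 1.30-fold rise (adjusted p = 0.0411). Smc2, its partner in condensin, changed by a like amount (0.39, SE 0.11) but with a low control 1 (8.74, 9.09 and 9.01 against 9.31, 9.31 and 9.40) and did not pass (adjusted p = 0.0744).

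The cohesin subunits Smc1a and Smc3 were at 0.22 and 0.15 on the log2 scale (adjusted p = 0.233 and 0.40), and Smc5 and Smc6, of the DNA repair complex, at 0.08 and 0.14 (95% intervals -0.13 to 0.30 and -0.05 to 0.34). The condensin II subunits Ncaph2 and Ncapd3 were at 0.22 and 0.13. Smc1b, a cohesin of meiosis, had a mean near 3.12, far below the median probe of the arrays (5.81), and a change of 0.04. The calls of Top2a and Smc4 did not survive the loss of any single array (adjusted p up to 0.0885 and 0.138), and that of Smc4 was lost also with each array centred on its median (0.0566).

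None of the 10 members of the anaphase-promoting complex group passed in limma, where 4.16% of all genes rose, so a count of 0 says little. The fibrinogen arrays lay above all controls for 4 of the 10 (40.0%), against 15.0% of all genes. The complex, a ubiquitin ligase, ends mitosis by marking cyclin B and securin for destruction. Its 8 measured subunits whose symbols begin with Anapc had changes from -0.12 (Anapc7) to 0.27 (Anapc16), with a median of 0.10. Among these, 0 of 8 reached an unadjusted p of 0.05. Their narrowest 95% intervals were those of Anapc4, -0.03 to 0.31, and Anapc1, -0.10 to 0.25. The subunits Cdc16, Cdc23, Cdc26 and Cdc27, which the naming pattern leaves out, were at 0.07, 0.13, 0.08 and 0.05. None of them passed, and the groups of Cdc23 and Cdc26 did not overlap. The activator Cdc20 and the E2 enzyme Ube2c, whose RNAs are known to rise before mitosis, stood apart from the subunits in size. Cdc20 read 7.86, 8.24 and 8.10 in control and 8.65, 8.45 and 8.50 with fibrinogen, and Ube2c 8.25, 8.06 and 8.28 against 8.56, 8.50 and 8.58. Their groups did not overlap, and their changes were 0.47 (SE 0.11) and 0.35 (SE 0.09), with an adjusted p = 0.0573 and 0.0561. Both passed with a mean-variance trend in the model and with dim genes left out of the test, and Cdc20 also with array weights.

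Related genes outside the naming pattern moved in the same direction. Of 50 measured mitosis genes from a textbook list, 16 rose, 0 fell and 34 did not pass (median 0.29; at an unadjusted p of 0.05, 29 were higher and 0 lower). Of the 23 measured genes of the G2/M list that the pattern does not name, 8 rose and 0 fell (median 0.34; 19 higher and 0 lower unadjusted); 11 genes stand in both lists. Pttg1 (securin, which holds back separase) rose 1.67-fold, Dlgap5 (a spindle microtubule protein) 1.74-fold, Hmmr (a spindle and hyaluronan-binding protein) 1.56-fold and Prc1 (a midzone bundler) 1.49-fold, with adjusted p = 0.00392, 0.00854, 0.00942 and 0.0102. Hmgb2, a chromatin protein, rose 1.71-fold, and Ect2, an activator of cytokinesis, 1.34-fold (adjusted p = 0.0237 and 0.0175). Pttg1, Dlgap5 and Hmmr kept their calls without any one array. That of Hmgb2 did not survive the loss of any single array (adjusted p up to 0.0665). Ect2 kept its call only without control 1 (highest otherwise 0.0744), and Prc1 lost it without fibrinogen 1 or 2 (highest 0.0508).

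Genes of S phase, when DNA is copied, were higher too: 8 of 35 measured S-phase list genes rose, 0 fell, and 34 of 35 changes were positive (median 0.29; 21 higher and 0 lower at an unadjusted p of 0.05). Atad2 and Uhrf1, chromatin proteins of replicating cells, rose 1.41- and 1.38-fold, Mcm5, a subunit of the replicative helicase, 1.47-fold and Tyms, which makes thymidylate, 1.30-fold (adjusted p = 0.0174, 0.0246, 0.0260 and 0.0265). These 4 calls were lost without control 3 and without each fibrinogen array, that of Uhrf1 also without control 1, and that of Tyms without any array (highest adjusted p = 0.0734 for Atad2, 0.0932 for Uhrf1, 0.0942 for Mcm5 and 0.0969 for Tyms).

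Of 15 measured transcription factors of the mitotic programme, Foxm1 rose 1.27-fold (adjusted p = 0.0469) and 14 did not pass. The share that rose, 6.67%, was near the 4.16% of all genes. Mybl2 (B-Myb) read a 1.47-fold difference with separate groups (log2 fold change 0.55, SE 0.14, adjusted p = 0.0607), and E2f8 and Lin54 were at 0.26 and 0.31. The call of Foxm1 did not survive the loss of any single array (adjusted p up to 0.156) and was lost with each array centred on its median (0.0723). Among 12 genes of cell cycle exit, Gadd45a (a growth arrest and stress gene) fell 1.99-fold (adjusted p = 0.00166) and Cdkn1c (the CDK inhibitor p57) 1.51-fold (adjusted p = 0.00997), while Cdkn2c (the CDK inhibitor p18) rose by 0.58 on the log2 scale (adjusted p = 0.0119). The other 9 did not pass. Among them Ccng2, a cyclin of resting cells, was at -0.38 (adjusted p = 0.0797). The CDK inhibitors Cdkn1a (separate groups, adjusted p = 0.167) and Cdkn1b (overlapping groups) were at 0.25 and 0.13. Of the 12 changes, 8 were negative and 4 positive. The call of Cdkn2c was lost without fibrinogen 2 or 3 (highest adjusted p = 0.0547), and the calls of Gadd45a and Cdkn1c were kept without any one array.

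**Figure D5:**
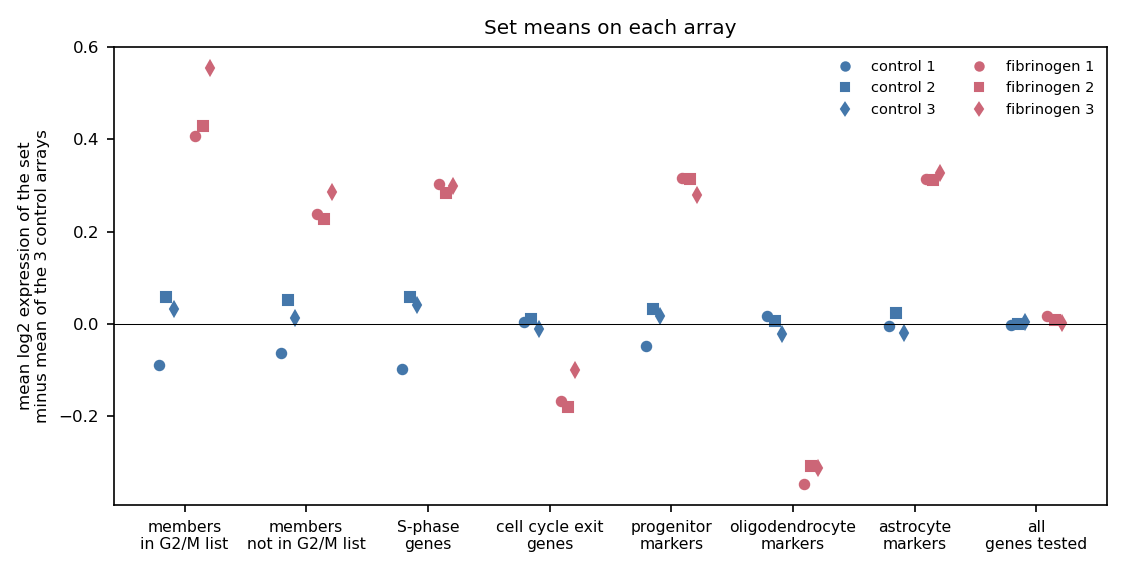
Mean log2 expression of each gene set on each array, minus the mean of its 3 control arrays (vertical axis), for 8 sets along the horizontal axis; blue points are controls, red points fibrinogen arrays, and the shape gives the replicate number. Members in the G2/M list show the largest shift among the sets drawn, oligodendrocyte markers and cell cycle exit genes lie below 0 with fibrinogen, and the mean of all genes shifts by 0.01.

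Markers of cell identity moved beside the mitotic genes, and their part in the result was not tested. All 11 measured progenitor markers lay above the median probe in control; 5 of 11 rose, 0 fell, and the list mean ran from 9.39 to 9.47 in control and from 9.72 to 9.76 with fibrinogen. Of 15 oligodendrocyte markers 9 fell and 1 rose (Ermn), with list means of 8.43 to 8.47 and 8.10 to 8.14. Of 10 astrocyte markers 5 rose and 0 fell, with list means of 7.80 to 7.85 and 8.13 to 8.15. The other 5 astrocyte markers had overlapping groups, with Aqp4 at -0.24, Gjb6 at -0.23, Gja1 at -0.10, S100b at -0.09 and Aldoc at 0.04 on the log2 scale. The progenitor markers with the smallest p were Cspg4, C1ql1, Cspg5 and Pdgfra (rises). Of the 11 progenitor changes 9 were positive, and those of Gpr17 (-0.14, separate groups) and Sox10 (-0.09) were negative. The oligodendrocyte markers with the smallest p were Fa2h, Enpp6 and Ugt8 (falls) and Ermn, which rose 2.83-fold (limma, adjusted p = 0.00264). For astrocytes they were Gfap, Vim, Slc1a2 and Slc1a3 (rises). Pdgfra lost its call without fibrinogen 1 (adjusted p = 0.0504). Bulk RNA does not show which cells carried the mitotic transcripts, and a larger share of dividing cells cannot be told apart from more of these RNAs per dividing cell.

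Markers of other cell types that can divide in such cultures were dim: in control, 13 of 15 genes on the microglia list, 7 of 8 on the fibroblast and pericyte list and 4 of 4 on the endothelium list were below the median probe. The microglia list mean ran from 4.67 to 4.82 in control and from 4.51 to 4.58 with fibrinogen, and 2 of its genes fell, Itgam and Cd53, with calls kept only without control 1 for Itgam and without control 2 or fibrinogen 3 for Cd53 (highest adjusted p = 0.122 and 0.130). The fibroblast and pericyte list ran from 4.82 to 4.89 and from 4.91 to 5.02, with 1 rise (Mgp) and Postn, Dcn and Rgs5 at -0.42, -0.29 and -0.05. Mgp averaged 5.66 in control and 7.25 with fibrinogen, above the median probe (5.81), a 3.01-fold rise (limma, adjusted p = 0.00513). It kept its call without any one array. The endothelium list ran from 3.86 to 4.24 and from 3.88 to 4.15, with no call in limma (0 of 4 at an unadjusted p of 0.05). Neuron markers ran from 6.80 to 6.90 and from 6.72 to 6.78 (2 rises, 2 falls of 12), and Schwann cell markers from 5.39 to 5.62 and from 5.18 to 5.29 (0 rises, 1 fall of 5, Pmp2). Their part in the rise of mitotic genes was not tested.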

How the data were processed

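Affymetrix arrays were hybridised with RNA from 3 control and 3 fibrinogen samples, grouped by their titles. The authors' deposited log2 values, 1 per probe set and array, were used as given. The submitters' processing notes name RMA and limma, with no version. The build is not stated in the labels. Among 26312 probe rows, 23631 had values on every array and 14083 of these had 1 gene symbol in the platform's annotation (14059 matched a current rat gene number). Array medians ran from 5.78 to 5.84. No detection call accompanies the values, and their number (3 arrays a group) limits precision: the median SE of a log2 fold change was 0.10 over all genes.

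Each gene was represented by its probe set with the highest mean. The test was limma's, version 3.58.1, under R 4.3.3 (fibrinogen minus control, lmFit, eBayes, no covariate, no filter), with Benjamini-Hochberg adjustment over 13355 genes and a threshold of 0.05; intervals are 95%. Groups were taken not to overlap when all 3 fibrinogen values lay above, or all 3 below, every control value. Genes were named by rule: every member past the threshold, the 10 with the smallest p, well-known members whatever their values, the extremes of change and level, the 3 nearest to the threshold on each side, and up to 4 genes per context list with the smallest p. The other genes named were chosen to complete their role or list or after their values were seen. The members, roles and lists were chosen with earlier results of these data known. The G2/M and S-phase lists are human lists distributed with the Seurat package, written with rat capitals, and the other lists come from textbook knowledge. Promoter windows are RefSeq's (GRCr8), and the first listed start of each gene was used. The model was tested on simulated data. Same-numbered arrays did not deviate together (correlations of 0.02, -0.14 and -0.07 over all genes), so replicate numbers were not used as pairs. Alternatives were other scalings, filters, probe rules and variance models, array weights, a replicate block, and leaving out each array.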

Additional observations from a re-analysis of the deposited data

How the results depend on the processing

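The median member change lay between 0.29 and 0.38 in the refits run, 69 to 71 of 77 members were positive where all were tested, and 65 of 69 and 70 of 75 where dim genes were left out. The number past the threshold changed with the filter on dim genes, the variance model, the number of arrays and the replicate block. Rises among members numbered 41 without genes below the median probe, 37 without the dimmest 25% of genes, 41 with a mean-variance trend, 11 with the unmoderated model and 6 to 18 with 1 array left out. Those 41 rises held the 27 rises in each case, and the 11 that the unmoderated model kept were Nek6, Kif18b, Nusap1, Tpx2, Plk1, Cenpt, Ccnb2, Ndc80, Ccnb1, Top2a and Kif11. The falls numbered 2 without genes below the median probe, 0 with the unmoderated model and 0 to 1 with 1 array left out (2 falls at an unadjusted p of 0.05 with all arrays and with the unmoderated model, 2 to 3 with 1 left out). Rises of G2/M members numbered 6 with the unmoderated model and 2 to 7 with 1 array left out. The count of all genes called was 1508 (887 higher, 621 lower) without genes below the median probe, 1639 (947 and 692) with the trend and 500 (268 and 232) with the unmoderated model, and 358 to 592 (208 to 379 higher, 150 to 239 lower) with 1 array left out.

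With each array centred on its median, the median of all genes moved from 0.00 to -0.04 on the log2 scale and the split of all calls from 555 higher and 401 lower to 434 and 516; 23 members still rose and 1 fell, all 23 among the 27. Ttk, Smc4, Spc25 and Cenpm were the 4 that lost the call, and a second quantile normalization kept 25. With the replicate block, which the data do not bear out as a pairing, the count of all genes called was 343 (199 higher, 144 lower), 4 members rose (2 of them G2/M members) and 0 fell (44 rises and 2 falls at an unadjusted p of 0.05); the 4 were among the 27. None of the 28 members past the threshold changed sign under any setting run. Of the refits of named genes, called or not, 1105 stayed on their side of the threshold, 233 lost a call and 30 gained one.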
